A study of Mus musculus with 36 samples.

Results

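The genes described here encode the mitochondrial respiratory chain and ATP synthase. They were taken by symbol, as every row named for a nuclear subunit or assembly factor of complexes I to V or for cytochrome c (the Nduf, Sdh, Uqcr, Cox4 to Cox8 and Atp5 names, Cyc1 and Cycs) and every row for a protein encoded by mitochondrial DNA. They made up 104 of 11337 rows, of which 93 were nuclear (92 symbols, with Ndufa13 in 2 rows) and 11 were mitochondrially encoded. The second Ndufa13 row has an identifier that GENCODE M21 names Yjefn3. It was kept under its deposited symbol and counted as a complex I accessory subunit, so it may not measure Ndufa13. ND4L and ATP8 had no row. The rule uses names and no measured value. Of these rows, 97 stood at 1 RPKM or more in all 36 libraries. The exceptions were Cox6a2, Cox6b2, Cox7a1, Cox8b, the second Ndufa13 row, COX2 and ND3. RPKM is the number of reads divided by transcript length and by the reads of the whole library. The deposited values are RPKM after a further adjustment that the sources used here do not describe.

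The series profiled polyA RNA of hindlimb muscle stem cells (satellite cells, which regenerate muscle fibres) from male C57BL6 mice, with 1 library from each of 36 mice. Of these, 21 mice were housed with a wheel for 3 weeks, and cells negative for CD31, CD45, Sca1 and DAPI and positive for VCAM were sorted. O(+Ex) denotes 18-month-old mice with a free wheel (5 libraries), O(-Ex) 18-month-old mice with a locked wheel (7), Y(+Ex) 3-month-old mice with a free wheel (3) and Y(-Ex) 3-month-old mice with a locked wheel (6). In a cohort of 15 mice every animal carried the Pax7_CreERT2 transgene and the R26R_YFP reporter and received tamoxifen, and live YFP+ cells were sorted 6 weeks later. Y(KO) denotes 3-month-old Ccnd1 flox/flox mice (5 libraries), Y(HET) 3-month-old Ccnd1 +/flox mice (4), O(WT) 18-month-old Ccnd1 +/+ mice (3) and Y(WT) 3-month-old Ccnd1 +/+ mice (3). Cre was thus expressed from Pax7, and the sort kept cells that had recombined the reporter. Ccnd1, which encodes cyclin D1, stood at 2.07 to 3.40 RPKM in Y(KO), 6.37 to 8.13 in Y(HET) and 10.6 to 13.3 in Y(WT), so no library overlapped a library of another of these genotypes. It stood at 6.51 to 9.16 RPKM in O(WT), 14.9 to 23.9 in O(+Ex), 6.11 to 9.70 in O(-Ex), 15.0 to 19.5 in Y(+Ex) and 9.58 to 14.5 in Y(-Ex). The satellite cell transcription factor Pax7 was at 14.2 to 32.5 RPKM across the 36 libraries, and all 9 satellite cell markers looked for had a row. The log2 values had lost 6 of 35 possible directions of variation before deposition, by a step that the sources used here do not describe. The age differences of the 2 cohorts therefore cannot be taken as independent measurements. The fits below count every library in full, so the SE and adjusted p of every comparison may be too small.

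Complexes I to IV pass electrons from NADH and succinate to oxygen, with ubiquinone and cytochrome c as mobile carriers, and complexes I, III and IV pump protons across the inner mitochondrial membrane. Complex V uses the proton gradient to make ATP. Most subunits are encoded in the nucleus and imported, whereas mitochondrial DNA encodes core subunits of complexes I, III, IV and V and none of complex II. Quiescent satellite cells are known for few mitochondria and a low rate of respiration, which rises when they enter the cell cycle.

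Mitochondrial genes have copies in nuclear DNA, and the following stretches show how close these are for a gene at a low level and a gene at a high level. The sequences are from the GENCODE M21 transcripts (mm10), 5′ to 3′, and capitals mark the bases that differ within each pair.
mt-Nd3 (chrM:9459-9498, plus strand): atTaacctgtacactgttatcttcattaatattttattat
Gm28438 (chr1:24613080-24613119, minus strand): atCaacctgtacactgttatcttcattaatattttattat
mt-Cytb (chrM:14970-15029, plus strand): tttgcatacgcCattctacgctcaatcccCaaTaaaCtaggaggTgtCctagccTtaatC
Gm11410 (chr4:80004814-80004873, plus strand): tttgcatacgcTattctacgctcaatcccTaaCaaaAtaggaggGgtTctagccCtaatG
Along the 345 bases that ND3 shares with Gm28438, an unprocessed pseudogene, 1 base differed (T3C, with the mitochondrial base first and positions counted from 1 at the 5′ end of the mt-Nd3 transcript). The CYTB stretch, the first of 60 bases with the most differences, covers positions 826 to 885 of its transcript, and 8 of its bases differed from Gm11410, a processed pseudogene. Of all 101-base windows of ND3, 97.6% occurred without a mismatch in a nuclear transcript, and likewise 99.5% for COX2, 99.5% for ATP6 and 99.9% for COX3. Those 4 genes match a block of pseudogenes on chromosome 1 (Gm28661, Gm10925, Gm28437 and Gm28438, between 24612775 and 24615565). ND4 shared 60.7% of its windows, COX1 30.7% and ND2 3.09%, and ND1, ND5, ND6 and CYTB shared none.

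Promoters are shown for the nuclear members with the lowest p in each comparison that had a call: Cox7c for age in the wheel cohort and for HET over WT, Ndufaf4 for age in the Ccnd1 cohort and for KO over HET, Ndufv3 for the wheel in old mice and Cox5b for KO over WT. They are RefSeq sequences of GRCm38.p6, from 250 bases before to 50 bases after the annotated start, and capitals mark matches to the motifs searched.
Ndufaf4 (chr4:24897833-24898132, plus strand): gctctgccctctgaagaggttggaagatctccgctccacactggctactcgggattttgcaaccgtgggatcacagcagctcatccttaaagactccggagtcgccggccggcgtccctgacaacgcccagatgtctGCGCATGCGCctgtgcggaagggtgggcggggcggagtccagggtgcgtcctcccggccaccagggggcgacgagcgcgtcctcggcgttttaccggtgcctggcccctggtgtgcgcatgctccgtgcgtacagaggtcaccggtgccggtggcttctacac
Ndufv3 (chr17:31519865-31520164, plus strand): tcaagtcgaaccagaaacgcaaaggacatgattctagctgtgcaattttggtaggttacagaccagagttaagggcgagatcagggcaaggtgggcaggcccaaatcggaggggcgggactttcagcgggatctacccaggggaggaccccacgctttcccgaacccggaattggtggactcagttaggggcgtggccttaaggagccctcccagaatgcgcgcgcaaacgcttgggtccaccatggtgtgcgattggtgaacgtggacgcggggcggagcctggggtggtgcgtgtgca
Cox5b (chr1:36691237-36691536, plus strand): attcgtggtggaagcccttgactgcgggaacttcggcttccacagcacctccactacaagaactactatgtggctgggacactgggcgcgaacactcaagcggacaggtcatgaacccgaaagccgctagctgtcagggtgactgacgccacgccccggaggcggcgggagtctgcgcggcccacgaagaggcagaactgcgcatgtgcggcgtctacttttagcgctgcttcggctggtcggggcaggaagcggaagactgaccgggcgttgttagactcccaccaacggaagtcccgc
Cox7c (chr13:86046746-86047045, minus strand): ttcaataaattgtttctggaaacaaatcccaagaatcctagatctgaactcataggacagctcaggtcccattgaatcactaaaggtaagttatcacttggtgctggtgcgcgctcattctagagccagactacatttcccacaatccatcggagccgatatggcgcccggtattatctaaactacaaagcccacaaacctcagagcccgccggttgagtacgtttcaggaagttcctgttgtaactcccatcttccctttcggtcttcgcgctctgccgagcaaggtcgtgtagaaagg
The motifs, searched on both strands and counted separately where they overlapped, were those of the respiratory gene regulators NRF1 (GCGCA, any base, then GCGC), GABPA (CCGGAAG) and ESRRA (TNAAGGTCA), of YY1 (AAGATGGCG) and of SP1 (GGGGCGGGG). The capitals in Ndufaf4 are an NRF1 match with its first base at -113 from the start, and the windows of Ndufv3, Cox5b and Cox7c held no match. Of the 92 nuclear genes, 76 had a promoter in the RefSeq table. NRF1 matched 19 of 76 (25%), against 11.7% of the 8859 promoters of genes in the deposited table. YY1 matched 8 (10.5%, against 3.82%), ESRRA 3 (3.95%, against 0.892%), GABPA 18 (23.7%, against 20.35%) and SP1 13 (17.1%, against 25.8%). A match is a description of the sequence and not a binding site.

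Among the mitochondrially encoded rows, 7 ranked from 2 to 103 by mean level among the 11337 rows, and 4 ranked from 5233 to 9124. Over the 36 libraries, mean levels were 5342 RPKM for CYTB (rank 2 of 11337 rows), 4478 for COX1 (rank 4), 2096 for ND1 (rank 10), 870 for ND5, 820 for ND2, 760 for ND4 and 455 for ND6. ND3 averaged 6.95 RPKM, ATP6 3.91, COX3 3.52 and COX2 1.96. These 4 are the genes with at least 97.6% of their windows repeated in nuclear transcripts. The treatment of reads that match several places is unstated in the labels and files, and the 4 low rows are therefore not read as levels of the mitochondrial transcripts. Each library is bulk RNA of sorted cells, so a lower level in fewer cells and a lower level per cell cannot be told apart.

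**Figure D1:**
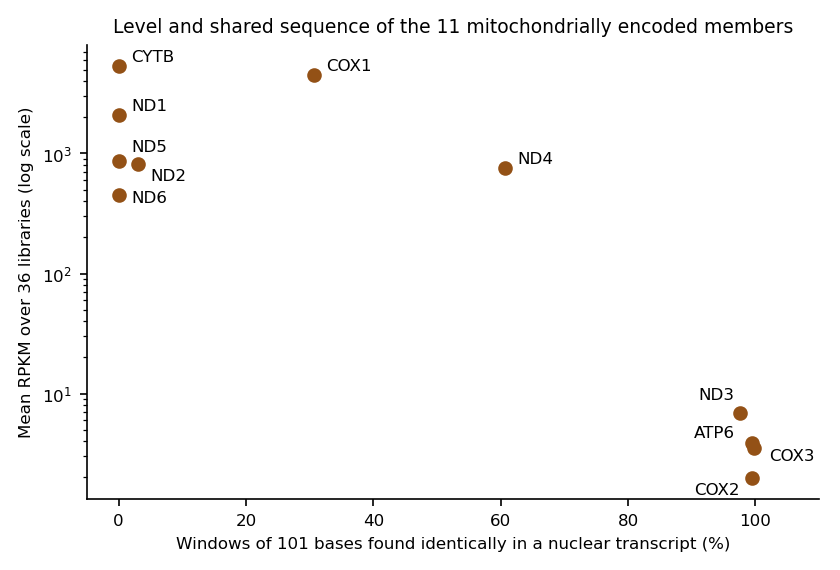
Mean RPKM over 36 libraries (vertical axis, log scale) of the 11 mitochondrially encoded rows against the percent of their 101-base windows that occur without a mismatch in a nuclear transcript (horizontal axis); each point is a gene. COX2, ATP6, COX3 and ND3, with 97.6% to 99.9% of windows repeated, lie at 1.96 to 6.95 RPKM, and the other 7 genes lie at 455 to 5342 RPKM.

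ND1, part of the proton-pumping arm next to the quinone site, had medians of 2059 RPKM in O(+Ex), 2188 in O(-Ex), 1856 in Y(+Ex), 1992 in Y(-Ex), 2225 in Y(KO), 2104 in Y(HET), 2384 in O(WT) and 1765 in Y(WT). ND2, an antiporter-like pump subunit, had 784 RPKM in O(+Ex), 808 in O(-Ex), 652 in Y(+Ex), 729.8 in Y(-Ex), 959 in Y(KO), 926 in Y(HET), 1013 in O(WT) and 665 in Y(WT). ND4, another pump subunit, had 679 RPKM in O(+Ex), 705 in O(-Ex), 612 in Y(+Ex), 706 in Y(-Ex), 877 in Y(KO), 784 in Y(HET), 942 in O(WT) and 603 in Y(WT). The highest median was that of O(WT) for all 3 genes, and the lowest was that of Y(WT) for ND1 and ND4 and of Y(+Ex) for ND2. ND5, the distal pump subunit, had medians of 762 RPKM in O(+Ex), 874 in O(-Ex), 726 in Y(+Ex), 903 in Y(-Ex), 875 in Y(KO), 998 in Y(HET), 1093 in O(WT) and 809 in Y(WT). ND6, the only protein gene on the other strand, had 373 RPKM in O(+Ex), 441 in O(-Ex), 344 in Y(+Ex), 439 in Y(-Ex), 458 in Y(KO), 508 in Y(HET), 571 in O(WT) and 345 in Y(WT). For ND5 and ND6 the lowest medians were those of the free-wheel groups and of Y(WT). ND3 had 8.96 RPKM in O(+Ex), 7.02 in O(-Ex), 3.18 in Y(+Ex), 3.46 in Y(-Ex), 6.84 in Y(KO), 8.86 in Y(HET), 9.78 in O(WT) and 5.42 in Y(WT), with the lowest medians in Y(+Ex) and Y(-Ex).

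Of the remaining complexes, CYTB, the cytochrome b of complex III, had medians of 5275 RPKM in O(+Ex), 5598 in O(-Ex), 4705 in Y(+Ex), 5072 in Y(-Ex), 5519 in Y(KO), 5191 in Y(HET), 6631 in O(WT) and 4647 in Y(WT). COX1, the catalytic subunit of complex IV, had 3681 RPKM in O(+Ex), 3934 in O(-Ex), 4089.6 in Y(+Ex), 4517 in Y(-Ex), 4541 in Y(KO), 5419 in Y(HET), 5017 in O(WT) and 3892 in Y(WT). The median of CYTB exceeded that of COX1 in every group except Y(HET). COX2, the copper subunit that takes electrons from cytochrome c, had 1.87 RPKM in O(+Ex), 2.01 in O(-Ex), 1.88 in Y(+Ex), 2.27 in Y(-Ex), 1.75 in Y(KO), 0.973 in Y(HET), 1.90 in O(WT) and 2.53 in Y(WT). COX3, the third core subunit, had 2.95 RPKM in O(+Ex), 3.24 in O(-Ex), 2.50 in Y(+Ex), 2.81 in Y(-Ex), 3.75 in Y(KO), 5.02 in Y(HET), 5.59 in O(WT) and 2.37 in Y(WT). ATP6, the proton channel of complex V, had 3.16 RPKM in O(+Ex), 3.32 in O(-Ex), 3.33 in Y(+Ex), 4.27 in Y(-Ex), 4.20 in Y(KO), 3.64 in Y(HET), 3.89 in O(WT) and 4.04 in Y(WT). The SD of log2 RPKM within groups had a median of 0.33 over the 11 mitochondrial rows (0.26 for the 7 abundant and 0.55 for the 4 low ones), against 0.15 over the 93 nuclear members and 0.21 over all rows. Mitochondrial members thus varied more between mice of a group than nuclear members did.

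Summed over members, the mitochondrial genome gave several times the RPKM of the nuclear genes in every library. The mitochondrial sum comes almost wholly from the 7 abundant rows, as the 4 low rows averaged 1.96 to 6.95 RPKM and ND4L and ATP8 had no row. Among the 7, ND4, COX1 and ND2 share 60.7%, 30.7% and 3.09% of their windows with nuclear transcripts. The lowest, median and highest sums of mitochondrial RPKM were 12919.9, 13544 and 14416 in O(+Ex), 13353, 14398 and 19027 in O(-Ex), 12214, 12984 and 13652 in Y(+Ex) and 12647, 14590.3 and 20913 in Y(-Ex). The corresponding nuclear sums were 4486, 4665 and 4931 in O(+Ex), 3934, 4473 and 4523 in O(-Ex), 3737, 4001 and 4133 in Y(+Ex) and 3639, 3983 and 4142 in Y(-Ex). The nuclear sums of O(+Ex) lay above all young sums of that cohort, and O(+Ex) and O(-Ex) overlapped. In the Ccnd1 cohort the mitochondrial sums were 10570.4, 15609 and 20284 in Y(KO), 13762, 15946 and 18737 in Y(HET), 11549, 17675 and 18546 in O(WT) and 9861, 12738 and 19661 in Y(WT). The nuclear sums were 4273, 4506 and 4789.6 in Y(KO), 3593, 4160.1 and 4280.0 in Y(HET), 4149, 4343 and 4651 in O(WT) and 3651, 3969 and 4065 in Y(WT). All Y(KO) and all O(WT) nuclear sums lay above the 3 Y(WT) sums, while the mitochondrial sums of the 4 groups overlapped.

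The ratio of the mitochondrial to the nuclear sum was 2.86, 2.91 and 2.95 (lowest, median and highest) in O(+Ex), 2.95, 3.21 and 4.38 in O(-Ex), 3.05, 3.30 and 3.47 in Y(+Ex) and 3.27, 3.54 and 5.10 in Y(-Ex). All 5 O(+Ex) ratios lay below all 7 O(-Ex) ratios, though the highest of O(+Ex) and the lowest of O(-Ex) were close. In the Ccnd1 cohort it was 2.47, 3.45 and 4.24 in Y(KO), 3.49, 3.94 and 4.52 in Y(HET), 2.78, 3.99 and 4.07 in O(WT) and 2.48, 3.49 and 4.84 in Y(WT), and the ranges overlapped. No test is given for these sums.

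**Figure D2:**
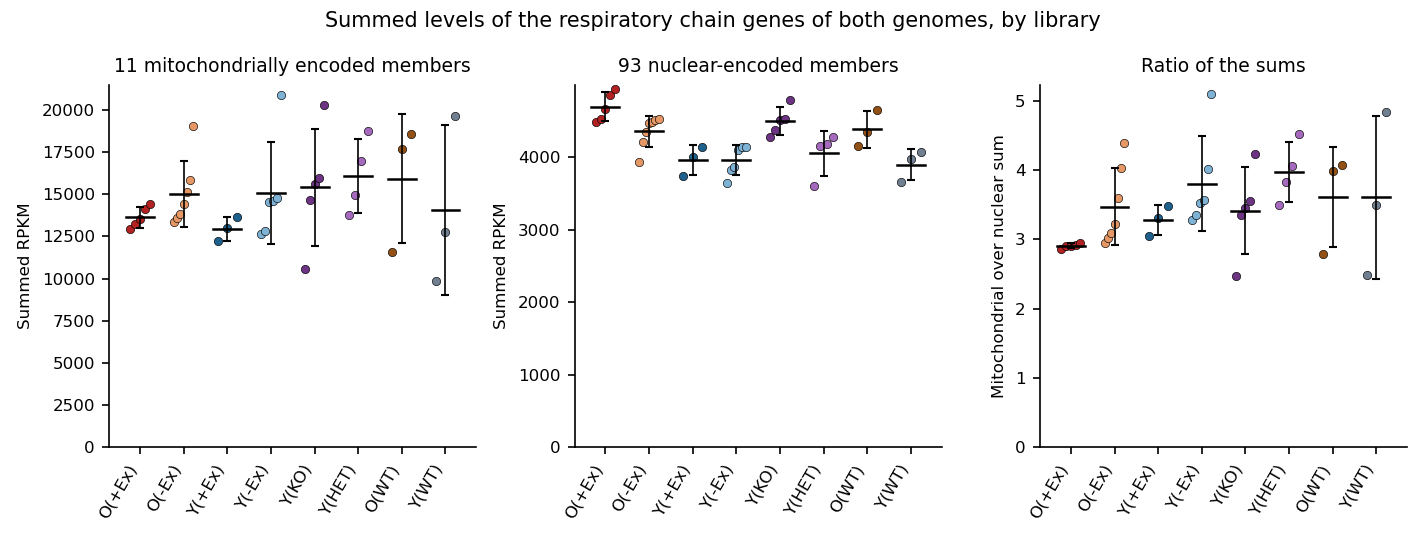
Summed RPKM of the 11 mitochondrially encoded rows, summed RPKM of the 93 nuclear rows and their ratio (vertical axes) in the 8 groups (horizontal axis); points are libraries, bars the group mean and error bars the SD. The nuclear sums of O(+Ex) (4486 to 4931) lie above those of Y(-Ex) (3639 to 4142), and the 5 O(+Ex) ratios fall within 2.86 to 2.95.

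The comparison of 18-month-old with 3-month-old mice on a locked wheel asks how age goes with these transcripts in unexercised cells. In O(-Ex), 44 members rose and 6 fell relative to Y(-Ex) (limma on log2 RPKM, Benjamini-Hochberg adjusted p under 0.05 over 11337 rows). Of all rows, 20.5% rose and 17.8% fell (38.3% in either direction). Of the 44 that rose, 43 were among the 93 nuclear rows, where 6 fell, and 1 was among the 11 mitochondrial rows. That 1 was ND3, one of the 4 low rows not read as levels of the mitochondrial transcripts. The median SD of log2 RPKM within groups was 0.26 for the 7 abundant mitochondrial rows and 0.15 for nuclear members. A change of equal size therefore passes less readily in the mitochondrial rows. The median log2 change was 0.18 over nuclear members, 0.05 over mitochondrial members and 0.01 over all rows. This gap between the genomes rested on 1 library. Without Y(-Ex) replicate 4 the medians were 0.18 over nuclear and 0.21 over mitochondrial members, and 4 mitochondrial rows rose. By role, calls up and down were 1 and 2 of 7 complex I core subunits, 14 and 0 of 30 complex I accessory subunits, 3 and 0 of 8 complex I assembly factors, none of 4 complex II subunits, 6 and 0 of 10 complex III subunits with cytochrome c, 12 and 4 of 18 complex IV subunits and 7 and 0 of 16 complex V subunits. All O(-Ex) libraries lay above all Y(-Ex) libraries for 12 nuclear members and ND3, and below for 1 (of all rows 6.96% lay above and 5.49% below). With each library divided by its RPKM outside the mitochondrial genome, 34 members rose and 11 fell, and the mitochondrial median turned to -0.02.

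In the Ccnd1 cohort, which cannot be taken as independent of the wheel cohort, 9 members rose and 2 fell in O(WT) relative to Y(WT) by limma. Of all rows, 8.03% rose and 7.76% fell (15.8% in either direction). The median change was 0.22 over nuclear and 0.31 over mitochondrial members, and none of the 11 mitochondrial rows passed. The members that rose were Ndufa5, Ndufb3, Ndufaf4, Cycs, Cox5b, Cox7c, Cox6b1, Ndufa4 and Atp5g1, and Cox4i2 was among those that fell. All O(WT) libraries lay above all Y(WT) libraries for 37 nuclear members and below for 1 (of all rows 18.9% lay above and 18.1% below). Fibro-adipogenic markers summed to 173 to 298 RPKM in O(WT) and 124 to 167 in Y(WT), and smooth muscle and pericyte markers to 223 to 244 in O(WT) and 261 to 418 in Y(WT), both without overlap, and their part was not tested. The count fell to 3 calls without O(WT) replicate 3, to 5 without Y(WT) replicate 1 and to 6 without O(WT) replicate 2, Y(WT) replicate 2 or Y(WT) replicate 3.

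**Figure D3:**
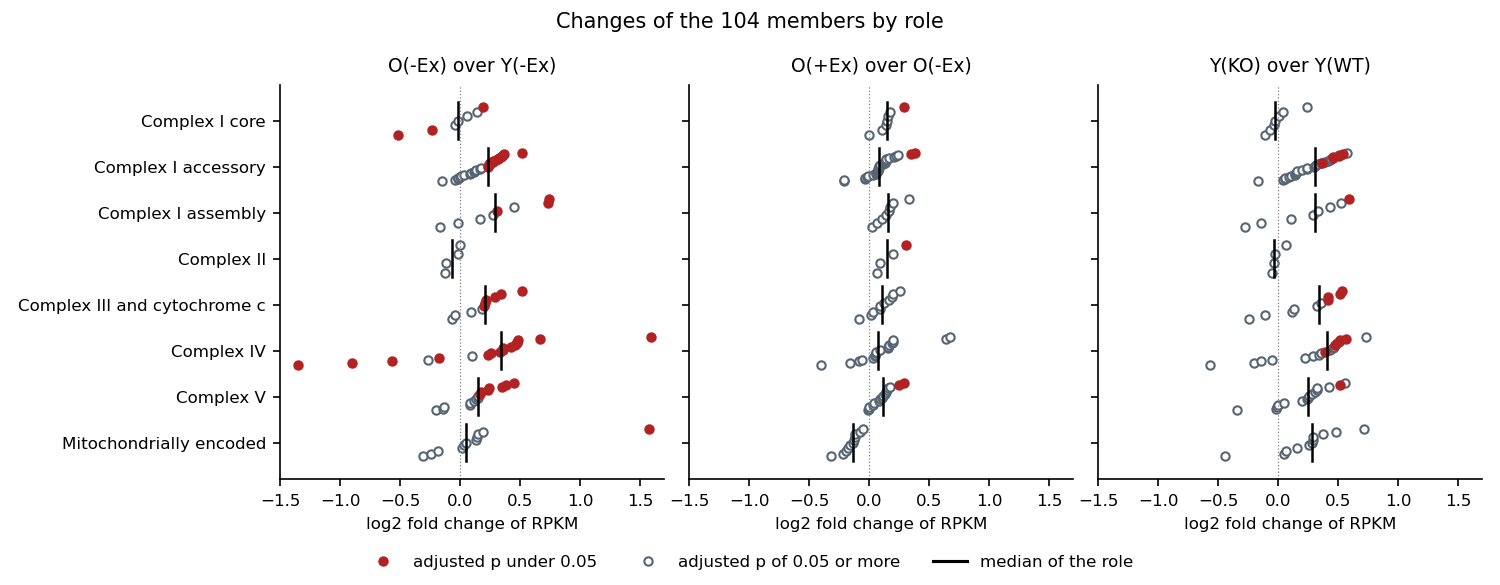
Log2 change of each member (horizontal axis) by role (rows) for O(-Ex) over Y(-Ex), O(+Ex) over O(-Ex) and Y(KO) over Y(WT); red points passed an adjusted p under 0.05 and the line in each row is the median. In the age panel complex IV has 12 members that rose and 4 that fell, and no complex II member passed.

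Among the core subunits of complex I, Ndufs8, an iron-sulfur subunit, was among those that fell. Its lowest, median and highest levels were 43.6, 52.9 and 57.0 RPKM in O(-Ex), against 54.4, 60.1 and 68.1 RPKM in Y(-Ex), with overlapping libraries (log2 change -0.24 ± 0.07 (SE), adjusted p = 0.00939, limma). In the Ccnd1 cohort it stood at 55.4, 51.1 and 50.6 RPKM in O(WT) and 54.0, 64.4 and 61.3 RPKM in Y(WT) and did not pass (log2 change -0.19 ± 0.12 (SE), adjusted p = 0.271, limma). Ndufs3, another core subunit, rose in O(-Ex) by a log2 change of 0.19 (adjusted p = 0.0181). The call for Ndufs3 was lost with the rescaling outside the mitochondrial genome (adjusted p = 0.119).

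Of the accessory subunits of complex I 14 of 30 rose, of its assembly factors 3 of 8 rose, and none of either kind fell. Ndufaf4, an assembly factor that acts early on the matrix arm, had 11.8, 15.2 and 16.6 RPKM in O(-Ex) (lowest, median, highest), against 7.22, 9.60 and 11.4 RPKM in Y(-Ex). All 7 old libraries were above all 6 young ones (log2 change 0.73 ± 0.10 (SE), adjusted p = 1.59e-05, limma). In the Ccnd1 cohort it had 15.3, 14.8 and 14.7 RPKM in O(WT) and 8.93, 8.55 and 9.05 RPKM in Y(WT), and the groups did not overlap (log2 change 0.76 ± 0.14 (SE), adjusted p = 0.00364, limma). Ndufaf8, also an assembly factor, averaged 10.8 ± 2.03 RPKM (SD, n = 7) in O(-Ex) and 6.46 ± 1.45 RPKM (SD, n = 6) in Y(-Ex), with overlapping libraries (log2 change 0.74 ± 0.13 (SE), adjusted p = 0.0002, limma). Ndufa5, an accessory subunit of the matrix arm, averaged 21.0 ± 2.04 RPKM in O(-Ex) and 14.8 ± 2.24 RPKM in Y(-Ex) (log2 change 0.52 ± 0.10 (SE), adjusted p = 0.000312, limma). The other called accessory subunits rose by log2 changes of 0.23 to 0.37, Ndufa12 the least and Ndufb7 the most.

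The 4 subunits of complex II, which oxidises succinate, did not pass in either cohort. In O(-Ex) and Y(-Ex), Sdha averaged 57.6 ± 6.88 and 62.9 ± 4.54 RPKM, Sdhb 49.9 ± 5.23 and 49.9 ± 3.35, Sdhc 16.0 ± 1.15 and 17.4 ± 2.05 and Sdhd 52.6 ± 3.61 and 53.8 ± 7.18 (SD, n = 7 and 6). The log2 changes ran from -0.13 to 0.00, with the SE of each between 0.07 and 0.08.

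In complex III and cytochrome c, 6 of 10 members rose in O(-Ex). Cycs, the somatic cytochrome c that shuttles electrons between complexes III and IV, had 27.8, 32.9 and 36.2 RPKM (lowest, median, highest) in O(-Ex) and 19.9, 23.2 and 24.2 RPKM in Y(-Ex), with no overlap (log2 change 0.51 ± 0.07 (SE), adjusted p = 1.77e-05, limma). Old WT mice had 33.4, 31.7 and 32.6 RPKM and young WT mice 22.2, 22.7 and 23.8 RPKM of Cycs (log2 change 0.51 ± 0.12 (SE), adjusted p = 0.0119, limma). Of the 101-base windows of Cycs, 24.6% occur in other transcripts, with Gm10053 as the closest copy, so its counts are uncertain to that extent. Uqcr11, a small subunit of complex III, averaged 45.3 ± 2.87 RPKM in O(-Ex) and 36.03 ± 4.26 RPKM in Y(-Ex) (log2 change 0.34 ± 0.07 (SE), adjusted p = 0.000652, limma), and Cyc1, the cytochrome c1 subunit, changed by 0.29 (adjusted p = 0.00834).

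Complex IV had the highest share of calls, 16 of 18. Cox7c, a small membrane subunit, had 43.5, 46.4 and 49.0 RPKM in O(-Ex) (lowest, median, highest) and 29.4, 34.4 and 36.3 RPKM in Y(-Ex), with every old library above every young one (log2 change 0.48 ± 0.06 (SE), adjusted p = 1.91e-06, limma). Of its 101-base windows, 19.4% occur in other transcripts, with Gm10012 as the closest. Cox5b, a subunit on the matrix side, had 37.2, 43.6 and 45.4 RPKM in O(-Ex) and 29.9, 31.7 and 34.6 RPKM in Y(-Ex), also without overlap (log2 change 0.42 ± 0.06 (SE), adjusted p = 1.71e-05, limma). In the Ccnd1 cohort, Cox5b had 44.3, 40.5 and 44.1 RPKM in O(WT) and 30.5, 32.4 and 32.1 RPKM in Y(WT) (log2 change 0.44 ± 0.11 (SE), adjusted p = 0.015, limma), a call lost without O(WT) replicate 3 (adjusted p = 0.0544). Cox7c had 44.6, 44.8 and 52.4 RPKM in O(WT) and 29.7, 30.4 and 38.8 RPKM in Y(WT) (log2 change 0.53 ± 0.15 (SE), adjusted p = 0.031, limma). The Cox7c call in that cohort was lost without any 1 of O(WT) replicates 1, 2 and 3 and Y(WT) replicates 1 and 2, with adjusted p up to 0.115.

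In complex V, 7 of 16 members rose in O(-Ex) and none fell. Atp5g1, which encodes the c subunit of the rotor, averaged 12.2 ± 0.828 RPKM in O(-Ex) and 9.39 ± 0.813 RPKM in Y(-Ex) without overlap (log2 change 0.38 ± 0.07 (SE), adjusted p = 0.000277, limma). Atp5d, the delta subunit of the central stalk, averaged 115 ± 7.64 RPKM and 90.8 ± 9.96 RPKM in the same groups (log2 change 0.34 ± 0.06 (SE), adjusted p = 0.000254, limma), and Atp5k, the small subunit e, changed by 0.45 (adjusted p = 0.00313). The beta subunit Atp5b did not pass, at 289.6 ± 31.6 RPKM in O(-Ex) and 262 ± 29.6 RPKM in Y(-Ex) (log2 change 0.14, limma adjusted p = 0.15). Neither did the alpha subunit Atp5a1, at 226 ± 15.0 and 214 ± 18.1 RPKM (log2 change 0.08, limma adjusted p = 0.312).

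Of the mitochondrial genes, ND3 rose, one of the 4 rows whose windows are repeated in the nuclear genome. It had 6.01, 7.02 and 14.5 RPKM in O(-Ex) and 0.854, 3.46 and 5.74 RPKM in Y(-Ex) (log2 change 1.58 ± 0.34 (SE), adjusted p = 0.00108, limma). The 7 abundant genes did not pass, with log2 changes of 0.15 for ND1, 0.19 for ND2, 0.03 for ND4, 0.02 for ND5, 0.05 for ND6, 0.13 for CYTB and -0.24 for COX1. The library Y(-Ex) replicate 4 stood apart, with 20913 summed mitochondrial RPKM against 12647 to 14783 in the other 5. Without it, ND1 (log2 change 0.21, adjusted p = 0.0158), ND2 (0.27, 0.00869) and CYTB (0.21, 0.0409) rose by limma. Without O(-Ex) replicate 2, COX1 fell (log2 change -0.31, adjusted p = 0.0332), and it also fell with the rescaling outside the mitochondrial genome (-0.31, 0.0274).

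**Figure D4:**
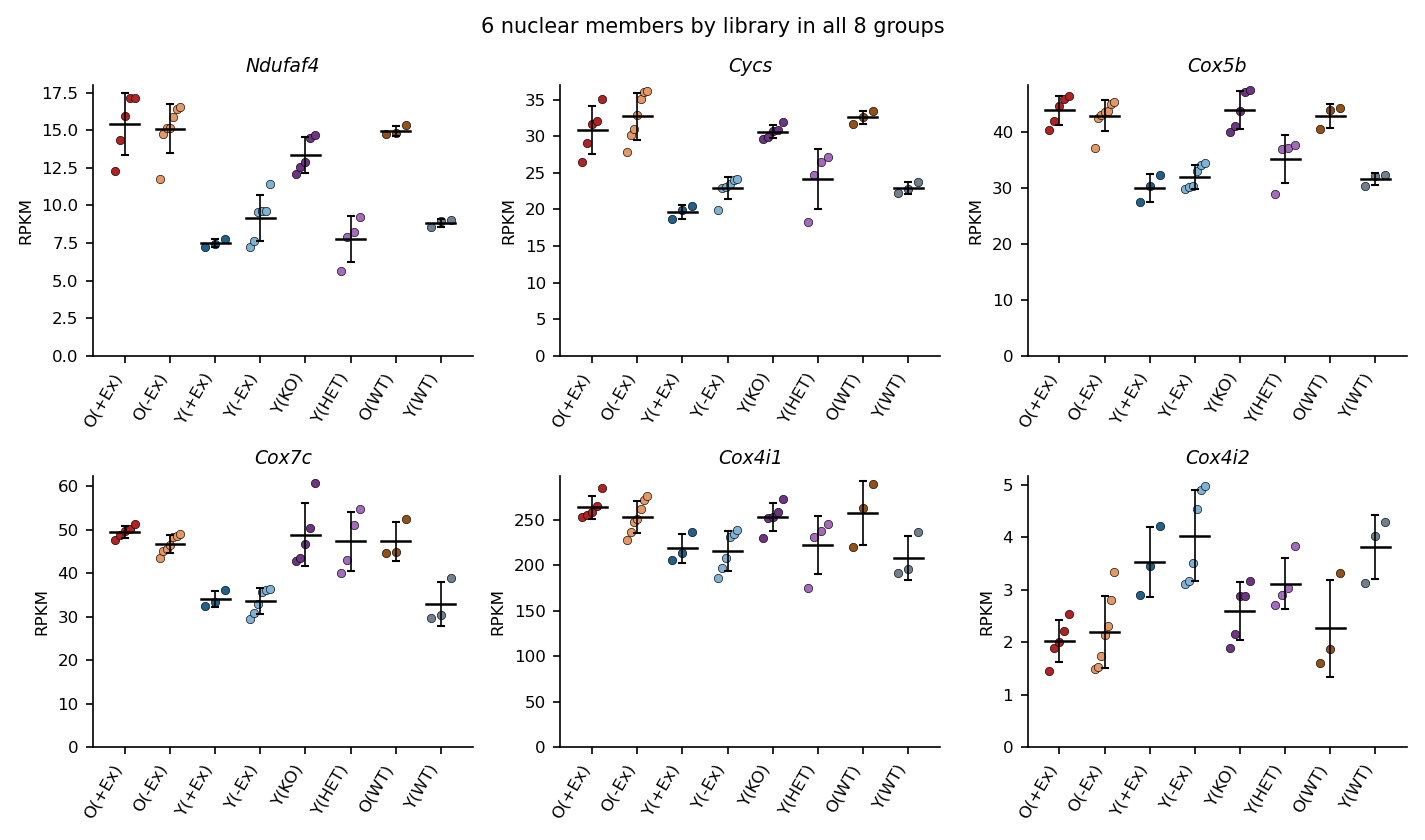
RPKM (vertical axes) of Ndufaf4, Cycs, Cox5b, Cox7c, Cox4i1 and Cox4i2 in the 8 groups (horizontal axis); points are libraries, bars the group mean and error bars the SD. Ndufaf4 lies at 11.8 to 16.6 RPKM in O(-Ex) and 12.1 to 14.7 in Y(KO), against 7.22 to 11.4 in Y(-Ex) and 8.55 to 9.05 in Y(WT), and Cox4i2 runs the other way with age.

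Several subunits exist as isoforms, of which some are typical of heart and mature muscle (Cox6a2, Cox7a1, Cox8b) or of lung and low oxygen (Cox4i2), and the others are widespread. Cox4i1 had group medians of 259 RPKM in O(+Ex), 251 in O(-Ex), 214 in Y(+Ex), 219.5 in Y(-Ex), 254 in Y(KO), 234 in Y(HET), 263 in O(WT) and 196 in Y(WT). Cox4i2 had 2.00 RPKM in O(+Ex), 2.14 in O(-Ex), 3.44 in Y(+Ex), 4.02 in Y(-Ex), 2.88 in Y(KO), 2.97 in Y(HET), 1.87 in O(WT) and 4.03 in Y(WT). The widespread isoform thus exceeded the other in every group, and the pair moved apart with age. Cox4i1 rose in O(-Ex) (log2 change 0.23 ± 0.07 (SE), adjusted p = 0.0077, limma), while Cox4i2 fell there (log2 change -0.91 ± 0.19 (SE), adjusted p = 0.000642) and in O(WT) (log2 change -0.81 ± 0.25 (SE), adjusted p = 0.0419). The Cox4i2 call in the Ccnd1 cohort was lost without O(WT) replicate 1 or 3 or Y(WT) replicate 2 or 3 (adjusted p up to 0.146).

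Cox6a1 had medians of 341 RPKM in O(+Ex), 324 in O(-Ex), 293 in Y(+Ex), 297 in Y(-Ex), 357 in Y(KO), 327 in Y(HET), 333 in O(WT) and 283 in Y(WT). Cox6a2 had 1.60 RPKM in O(+Ex), 0.556 in O(-Ex), 1.65 in Y(+Ex), 1.29 in Y(-Ex), 1.17 in Y(KO), 1.12 in Y(HET), 0.772 in O(WT) and 1.13 in Y(WT). Cox6a1 did not pass for age (log2 change 0.10, limma adjusted p = 0.343), and Cox6a2 fell in O(-Ex) (log2 change -1.35 ± 0.51 (SE), adjusted p = 0.0421), a call lost without any 1 of O(-Ex) replicates 1, 4, 5, 6 and 7 and Y(-Ex) replicates 3, 4 and 6 (adjusted p up to 0.116). Cox6b1 had 78.3 RPKM in O(+Ex), 71.9 in O(-Ex), 49.6 in Y(+Ex), 50.8 in Y(-Ex), 75.1 in Y(KO), 57.9 in Y(HET), 71.7 in O(WT) and 50.5 in Y(WT). Cox6b2, a testis isoform, had 2.34 RPKM in O(+Ex), 2.60 in O(-Ex), 1.79 in Y(+Ex), 1.79 in Y(-Ex), 3.18 in Y(KO), 2.21 in Y(HET), 2.93 in O(WT) and 1.67 in Y(WT). Both rose in O(-Ex), Cox6b1 by a log2 change of 0.48 (adjusted p = 1.82e-05) and Cox6b2 by 0.67 (adjusted p = 0.0061).

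Cox7a1 had medians of 1.04 RPKM in O(+Ex), 1.29 in O(-Ex), 1.68 in Y(+Ex), 1.97 in Y(-Ex), 2.50 in Y(KO), 3.08 in Y(HET), 1.35 in O(WT) and 1.57 in Y(WT). Cox7a2 had 63.0 RPKM in O(+Ex), 57.6 in O(-Ex), 38.0 in Y(+Ex), 43.5 in Y(-Ex), 55.3 in Y(KO), 43.1 in Y(HET), 57.2 in O(WT) and 39.8 in Y(WT). Cox7a2l had 94.8 RPKM in O(+Ex), 85.3 in O(-Ex), 107 in Y(+Ex), 95.6 in Y(-Ex), 80.5 in Y(KO), 97.8 in Y(HET), 89.9 in O(WT) and 80.0 in Y(WT). In O(-Ex), Cox7a2 rose (0.47, adjusted p = 0.00014), and Cox7a1 (-0.57, 0.0303) and Cox7a2l (-0.18, 0.0386) fell by limma. The Cox7a1 call was lost without O(-Ex) replicate 7 or Y(-Ex) replicate 2 or 3 (adjusted p up to 0.0833). Cox8a had 210.2 RPKM in O(+Ex), 188 in O(-Ex), 155 in Y(+Ex), 148 in Y(-Ex), 187 in Y(KO), 171 in Y(HET), 195 in O(WT) and 139 in Y(WT). Cox8b had 3.70 RPKM in O(+Ex), 2.50 in O(-Ex), 2.36 in Y(+Ex), 1.09 in Y(-Ex), 1.54 in Y(KO), 1.42 in Y(HET), 2.85 in O(WT) and 0.916 in Y(WT). Both rose in O(-Ex), Cox8a by 0.36 (adjusted p = 0.000427) and Cox8b by 1.59 (adjusted p = 0.022), the second a call lost without Y(-Ex) replicate 3 or 4 (0.0611 and 0.0554). The 3 isoforms of mature muscle thus went in both directions.

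Mature myofibre markers (11 of 15 found) summed to 62.3 to 211 RPKM in O(-Ex) and 146 to 755 in Y(-Ex), the highest being Y(-Ex) replicate 4. Fibro-adipogenic markers (6 of 6 found) summed to 197 to 280 RPKM in O(-Ex) and 129 to 166 in Y(-Ex), without overlap. Over all 36 libraries the defining marker Pdgfra was at 0.289 to 1.26 RPKM, while Dcn was at 33.7 to 153, Ly6a at 40.4 to 120.2, Lum at 10.5 to 28.0, Smoc2 at 5.14 to 25.5 and Col15a1 at 8.85 to 19.5 RPKM. Smooth muscle and pericyte markers (5 of 5) summed to 211 to 263 RPKM in O(-Ex) and 282 to 402 in Y(-Ex). The part of these cell types in the age differences of the members was not tested.

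Ndufa4, now placed in complex IV, had medians of 30.9 RPKM in O(+Ex), 28.5 in O(-Ex), 22.4 in Y(+Ex), 23.1 in Y(-Ex), 26.8 in Y(KO), 22.2 in Y(HET), 28.7 in O(WT) and 22.4 in Y(WT). Its paralogue Ndufa4l2, known as a target of the hypoxia response, had 8.71 RPKM in O(+Ex), 9.90 in O(-Ex), 11.1 in Y(+Ex), 10.4 in Y(-Ex), 9.67 in Y(KO), 8.72 in Y(HET), 8.72 in O(WT) and 10.1 in Y(WT). Ndufa4 rose in O(-Ex) (log2 change 0.33, limma adjusted p = 0.00118), and Ndufa4l2 did not pass (-0.27, 0.373). Of the 3 genes for the same c subunit of complex V, Atp5g1 had 13.8 RPKM in O(+Ex), 12.4 in O(-Ex), 8.55 in Y(+Ex), 9.53 in Y(-Ex), 11.3 in Y(KO), 10.2 in Y(HET), 12.3 in O(WT) and 9.29 in Y(WT). Atp5g2 had 20.5 RPKM in O(+Ex), 17.1 in O(-Ex), 22.03 in Y(+Ex), 19.1 in Y(-Ex), 20.9 in Y(KO), 21.9 in Y(HET), 20.5 in O(WT) and 17.5 in Y(WT). Atp5g3 had 85.8 RPKM in O(+Ex), 80.0 in O(-Ex), 70.0 in Y(+Ex), 74.2 in Y(-Ex), 86.2 in Y(KO), 79.1 in Y(HET), 84.6 in O(WT) and 69.3 in Y(WT) and was the most abundant of the 3 in every group. With age Atp5g1 was the one that rose, while Atp5g2 (-0.20, adjusted p = 0.0653) and Atp5g3 (0.12, 0.179) did not pass, and the difference between them was not tested.

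The members that rose were mostly genes with a short coding sequence. Of the 53 nuclear members with a coding length up to 500 bp, 36 rose in O(-Ex) (67.9%), and of the 40 longer ones 7 rose (17.5%). Among rows that are not members, 38.1% of the short ones rose and 10.5% fell, and 18.9% of the longer ones rose and 18.8% fell. In Y(KO) against Y(WT), 14 of the 53 short members rose (26.4%) and 1 of the 40 longer ones (2.5%), against 11.8% and 4.46% of other rows. The part of transcript length in these differences was not tested.

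The free wheel against the locked wheel in 18-month-old mice asks what voluntary running goes with in old cells. This comparison uses the same O(-Ex) libraries as the age comparison. In O(+Ex), 6 of 104 members rose and none fell by limma, where 4.09% of all rows rose and 3.3% fell (7.39% in either direction), so the count of members was near that of the table. They were Ndufs8 and the accessory subunits Ndufv3 and Ndufa8 in complex I, Sdhd in complex II, and Atp5c1 and Atp5g2 in complex V. The nuclear members had a median log2 change of 0.11, with 78 of 93 positive, against -0.01 over all rows, with 5509 of 11337 positive. The mitochondrial members had a median of -0.13, with 11 of 11 negative, the 4 low rows included. Members measured in the same libraries are not independent of each other, and no test is given for these signs. With the rescaling outside the mitochondrial genome 20 members rose. The count fell to 3 without O(-Ex) replicate 5 or O(+Ex) replicate 2 and to 1, Ndufv3, without O(+Ex) replicate 3. All O(+Ex) libraries lay above all O(-Ex) libraries for 6 nuclear members and below for 1 member, ND6 (of all rows 2.13% lay above and 1.82% below).

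Ndufv3, an accessory subunit of the NADH-binding module, had 11.4, 11.9, 12.5, 11.4 and 11.8 RPKM in O(+Ex), against 8.44, 9.24 and 9.93 RPKM in O(-Ex) (lowest, median, highest). All free-wheel libraries were above all locked-wheel ones (log2 change 0.38 ± 0.08 (SE), adjusted p = 0.00585, limma). In young mice it had 12.4, 11.3 and 12.1 RPKM in Y(+Ex) and 8.75, 10.2 and 12.0 RPKM in Y(-Ex), with overlap (log2 change 0.25 ± 0.09 (SE), adjusted p = 0.182, limma). The difference between the old and young effects was 0.14 (adjusted p = 0.822).

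Ndufs8 had 62.2, 63.1, 66.6, 64.6 and 60.5 RPKM in O(+Ex) and 43.6, 52.9 and 57.0 RPKM in O(-Ex), again without overlap (log2 change 0.29 ± 0.07 (SE), adjusted p = 0.0215, limma). Its level in Y(-Ex) was 61.4 ± 5.28 RPKM (SD, n = 6). Sdhd, a membrane anchor of complex II, had 63.3, 65.7, 69.3, 62.4 and 63.8 RPKM in O(+Ex) and 46.1, 53.3 and 57.3 RPKM in O(-Ex) (log2 change 0.30 ± 0.08 (SE), adjusted p = 0.0248, limma). The other complex II subunits did not pass, with Sdha at 0.20, Sdhb at 0.06 and Sdhc at 0.09 on the log2 scale. Atp5c1, the gamma subunit of the central stalk of complex V, averaged 123 ± 5.21 RPKM in O(+Ex) and 104 ± 7.22 RPKM in O(-Ex) (SD, n = 5 and 7; log2 change 0.25 ± 0.07 (SE), adjusted p = 0.0394, limma). Ndufa8 averaged 52.5 ± 6.37 and 41.1 ± 4.76 RPKM (log2 change 0.35 ± 0.09 (SE), adjusted p = 0.0206) and Atp5g2 20.3 ± 1.61 and 16.7 ± 2.30 RPKM (log2 change 0.29 ± 0.09 (SE), adjusted p = 0.0497, limma), both with overlapping libraries. Without O(+Ex) replicate 3 the calls for Ndufs8 (adjusted p = 0.0613), Ndufa8 (0.0728), Sdhd (0.0722), Atp5c1 (0.0873) and Atp5g2 (0.108) were lost. Sdhd also lost its call without O(-Ex) replicate 5 (0.0507) or O(+Ex) replicate 2 (0.0537). Atp5c1 lost it without any 1 of O(-Ex) replicates 2 to 5 and O(+Ex) replicates 2 to 5 (up to 0.0911), and Atp5g2 without any 1 of O(-Ex) replicates 3 to 6 and O(+Ex) replicates 1, 2, 3 and 5 (up to 0.131). Endothelial markers (8 of 8 found) summed to 161 to 239 RPKM in O(+Ex) and 112 to 169 in O(-Ex), smooth muscle and pericyte markers to 245 to 306 RPKM in O(+Ex) and 211 to 263 in O(-Ex), and their part in these differences was not tested.

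The mitochondrial genes were lower in O(+Ex) than in O(-Ex) in the mean, and none passed. ND6 had 369, 392, 385, 373 and 362 RPKM in O(+Ex) and 413, 441 and 611 RPKM in O(-Ex), where all free-wheel libraries lay below all locked-wheel ones (log2 change -0.32, limma adjusted p = 0.232). The strand setting of the counting is unstated, and whether the ND6 row holds reads of the opposite strand was not tested. ND5 had 751, 762, 768, 771 and 740.1 RPKM in O(+Ex) and 758, 874 and 1108 RPKM in O(-Ex), with overlap at the lowest locked-wheel library (log2 change -0.22, adjusted p = 0.145). CYTB averaged 5219 ± 216 RPKM in O(+Ex) and 5723 ± 783 RPKM in O(-Ex) (log2 change -0.12).

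**Figure D5:**
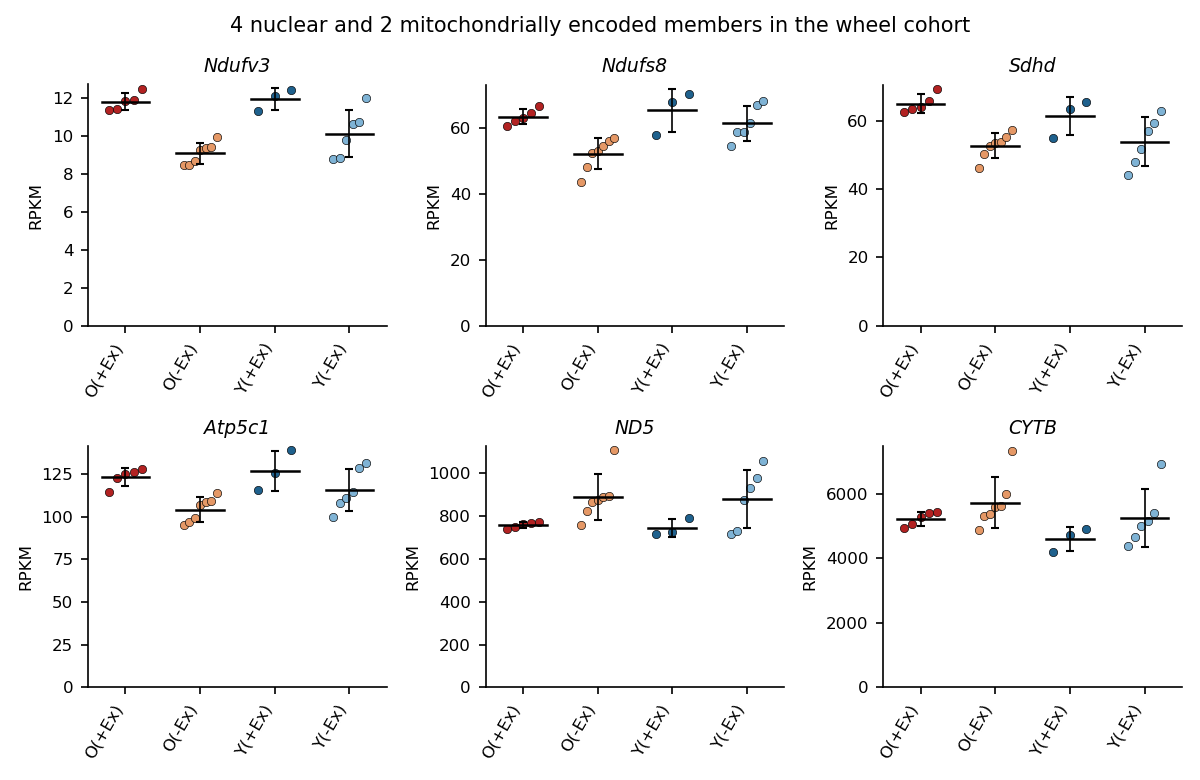
RPKM (vertical axes) of Ndufv3, Ndufs8, Sdhd, Atp5c1, ND5 and CYTB in the 4 groups of the wheel cohort (horizontal axis); points are libraries, bars the group mean and error bars the SD. For the 4 nuclear genes all O(+Ex) libraries lie above all O(-Ex) libraries, and for ND5 and CYTB the groups overlap.

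In young mice no member passed for the wheel (limma, 0 of 104; 1.12% of all rows passed), and 9 had an unadjusted p under 0.05. The lowest p values were those of Ndufv3, given above, of Uqcrb, a complex III subunit, with 65.7 ± 1.23 RPKM in Y(+Ex) and 75.9 ± 7.46 RPKM in Y(-Ex) (log2 change -0.20, adjusted p = 0.204), and of the accessory subunit Ndufb2, with 3.45 ± 0.361 and 4.31 ± 0.658 RPKM (-0.31, 0.214). The mitochondrial members, with the 4 low rows, were negative in 10 of 11 (median -0.23), and the nuclear ones positive in 47 of 93 (median 0.00). Of all rows, 5676 of 11337 were positive, and no test is given for these signs either. All Y(+Ex) libraries lay above all Y(-Ex) libraries for 0 members and below for 1, Uqcrb (of all rows 4.7% lay above and 4.85% below). The test of the difference between the wheel effects in old and young mice found 0 of 104 members (limma; 0.00882% of all rows), with 3 at an unadjusted p under 0.05. These were Uqcrfs1, the Rieske iron-sulfur protein (0.32, adjusted p = 0.551), Uqcrb (0.24, 0.556) and the assembly factor Ndufaf2 (0.35, 0.561). The wheel effects on members were thus not shown to differ between ages.

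The comparison of Ccnd1 genotypes asks what loss of cyclin D1 in young satellite cells goes with. Y(KO) and Y(HET) are both set against the same 3 Y(WT) libraries, which also serve as the young group of the age comparison in that cohort. In Y(KO), 15 of 93 nuclear members rose and none fell relative to Y(WT) by limma, where 5.05% of all rows rose and 1.94% fell (6.99% in either direction). None of the 11 mitochondrial members passed. The median log2 change was 0.28 over nuclear and 0.28 over mitochondrial members, against 0.02 over all rows. The calls were 5 of 30 accessory subunits and 1 of 8 assembly factors of complex I, 4 of 10 in complex III with cytochrome c, 4 of 18 in complex IV and 1 of 16 in complex V, and none among complex I core subunits or complex II. All KO libraries lay above all WT libraries for 28 nuclear members and below for 1 (of all rows 11.2% lay above and 6.61% below), and the 15 called members were among the 28.

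This count rested on few libraries. It was 2 without Y(WT) replicate 1, 0 without Y(WT) replicate 2 and 1 without Y(WT) replicate 3, and 5, 3 and 2 without Y(KO) replicates 1, 3 and 5. It was 4 with the rescaling outside the mitochondrial genome, and with median-of-ratios scaling 10 members rose and 1 fell. Fibro-adipogenic markers summed to 160 to 208 RPKM in Y(KO) and 124 to 167 in Y(WT), and their part was not tested.

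In complex I, Ndufaf4 had 12.6, 12.1, 12.9, 14.5 and 14.7 RPKM in Y(KO), 8.26, 9.22, 5.67 and 7.93 RPKM in Y(HET) and 8.93, 8.55 and 9.05 RPKM in Y(WT). All KO libraries were above all others (log2 change 0.59 ± 0.12 (SE), adjusted p = 0.0168 for KO over WT, limma), and HET and WT overlapped (log2 change -0.21 for HET over WT, adjusted p = 0.354). The KO call was lost without Y(WT) replicate 2 (adjusted p = 0.0732) or 3 (0.0557). Ndufa3, an accessory subunit, had 17.8, 12.0, 15.0, 12.1 and 16.2 RPKM in Y(KO) and 9.15, 10.9 and 9.87 RPKM in Y(WT) (log2 change 0.54 ± 0.12 (SE), adjusted p = 0.023, limma). Ndufa13, in its row at ENSMUSG00000036199, had 50.3, 41.9, 43.8, 41.8 and 52.7 RPKM in Y(KO) and 28.8, 33.8 and 34.6 RPKM in Y(WT) (log2 change 0.51 ± 0.12 (SE), adjusted p = 0.0229, limma). Its exons overlap other genes, with 23.9% of its windows found in transcripts such as those of Tssk6, so part of its counts is uncertain. Ndufc1 (0.46), Ndufa2 (0.46) and Ndufa7 (0.36) were the other accessory subunits that rose. The calls for Ndufa3 and Ndufa13 were lost without any 1 of the 3 WT libraries and without Y(KO) replicate 5, and that for Ndufa3 also without Y(KO) replicate 3 (adjusted p up to 0.073).

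In complex III and cytochrome c, Cycs had 29.6, 30.7, 31.9, 29.9 and 30.9 RPKM in Y(KO), 24.6, 27.2, 18.2 and 26.5 RPKM in Y(HET) and 22.2, 22.7 and 23.8 RPKM in Y(WT). The KO libraries lay close together and above both other groups (log2 change 0.42 ± 0.11 (SE), adjusted p = 0.0338 for KO over WT, limma). Uqcr10, a small complex III subunit, averaged 68.0 ± 11.5 RPKM in Y(KO) and 47.1 ± 4.08 RPKM in Y(WT) (SD, n = 5 and 3; log2 change 0.52 ± 0.14 (SE), adjusted p = 0.0377, limma). Uqcr11 rose by 0.53 (adjusted p = 0.0414) and Uqcrb by 0.42 (adjusted p = 0.039). The Cycs and Uqcr10 calls were lost without any 1 WT library and without Y(KO) replicate 1, 3 or 5 (adjusted p up to 0.112).

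In complex IV, Cox5b had 40.1, 43.8, 47.6, 41.1 and 47.2 RPKM in Y(KO), 37.1, 37.2, 28.9 and 37.7 RPKM in Y(HET) and 30.5, 32.4 and 32.1 RPKM in Y(WT). KO and WT did not overlap, and HET lay between them except for 1 library below all WT libraries (log2 change 0.47 ± 0.10 (SE), adjusted p = 0.015 for KO over WT, limma). That call was lost without Y(WT) replicate 2 (0.0585) or 3 (0.0545). Cox7c had 42.8, 46.6, 50.4, 43.6 and 60.7 RPKM in Y(KO), 40.1, 51.1, 43.0 and 54.8 RPKM in Y(HET) and 29.7, 30.4 and 38.8 RPKM in Y(WT), and KO and HET were both above WT (log2 change 0.56 ± 0.14 (SE), adjusted p = 0.0277 for KO over WT, limma). Cox6c (0.52, adjusted p = 0.0347) and Ndufa4 (0.39, 0.0471) were the other complex IV members that rose. In complex V, Atp5e, the epsilon subunit, averaged 20.4 ± 3.28 RPKM in Y(KO) and 14.1 ± 1.11 RPKM in Y(WT) (log2 change 0.52 ± 0.15 (SE), adjusted p = 0.046, limma), a call lost without any 1 of Y(WT) replicates 1, 2 and 3 and Y(KO) replicates 1, 3 and 5 (adjusted p up to 0.129). The Cox7c call was lost without Y(WT) replicate 1 or 2 or Y(KO) replicate 3 or 5 (adjusted p up to 0.113).

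With 1 intact copy, Cox7c was the single member that rose in Y(HET) relative to Y(WT), and none fell (limma, 1 of 104; of all rows 1.98% rose and 3.4% fell, 5.39% in either direction). Satellite cell markers (9 of 9) summed to 792 to 986 RPKM in Y(HET) and 1127 to 1502 in Y(WT), without overlap, and smooth muscle and pericyte markers to 354 to 491 in Y(HET) and 261 to 418 in Y(WT), and their part was not tested. The change of Cox7c was 0.52 ± 0.14 (SE; adjusted p = 0.0465), lost without Y(WT) replicate 1 or 2 or Y(HET) replicate 1, 2 or 4 (adjusted p up to 0.189). All HET libraries lay above all WT libraries for 2 nuclear members and below for 7 (of all rows 6.92% lay above and 14.3% below). Ndufaf3, an assembly factor, had the next lowest p and did not pass, at 4.22 ± 0.347 RPKM in Y(HET) and 5.41 ± 0.571 RPKM in Y(WT) (log2 change -0.36, adjusted p = 0.0552).

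Between KO and HET, which reuses the libraries of both comparisons above, 5 members rose in Y(KO) and none fell (limma; 5.15% of all rows rose and 0.891% fell, 6.04% in either direction). Ndufaf4 had the largest change (log2 change 0.80 ± 0.11 (SE), adjusted p = 0.0021) and passed in all alternatives run, with the lowest KO library at 12.1 RPKM and the highest HET library at 9.22 RPKM. All KO libraries lay above all HET libraries for 12 nuclear members and below for 0 (of all rows 8.34% lay above and 1.8% below). Ndufaf1, another assembly factor, averaged 9.52 ± 1.17 RPKM in Y(KO) and 7.14 ± 0.329 RPKM in Y(HET) (SD, n = 5 and 4; log2 change 0.41 ± 0.10 (SE), adjusted p = 0.0254, limma). Ndufa11 (0.39, 0.048), Cycs (0.36, 0.0439) and Cox5b (0.32, 0.0445) rose close to the threshold. The median of all rows in this comparison was 0.08 as deposited and -0.03 after rescaling outside the mitochondrial genome, a shift of over 0.1. With that rescaling and with median-of-ratios scaling Ndufaf4 alone passed, and the mitochondrial median was -0.09 and -0.07, against 0.02 as deposited. Fibro-adipogenic markers summed to 160 to 208 RPKM in Y(KO) and 134 to 156 in Y(HET), without overlap, and smooth muscle and pericyte markers to 281 to 391 in Y(KO) and 354 to 491 in Y(HET), and their part was not tested. Without Y(HET) replicate 1 or 3 or Y(KO) replicate 3 or 5 the count was 1, without Y(KO) replicate 4 it was 2 and without Y(KO) replicate 2 it was 3.

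Further lists of genes that build or supply the chain had calls in both directions with age in the wheel cohort. In each list the share called there was below the 38.3% of all rows. Of all rows, 15.8% passed in O(WT) over Y(WT) and 7.39% in O(+Ex) over O(-Ex). For the genotypes the share of all rows was 6.99% in Y(KO) over Y(WT), 5.39% in Y(HET) over Y(WT) and 6.04% in Y(KO) over Y(HET). Of assembly factors for the complexes (29 of 37 listed were found), 3 rose and 3 fell in O(-Ex) (20.7% called). Among them were the copper-handling factors Cox11 (log2 change 0.71) and Sco1 (0.62), and Coa5 (-0.81) and Sdhaf4 (-0.60). In O(WT) 2 rose (Cox11 0.64, Sco1 0.62) and 1 fell (Coa5 -0.69). In O(+Ex) 4 rose and none fell, with Uqcc3, a complex III factor, at 0.53 and Sdhaf4, a complex II factor, at 0.82. None passed in Y(KO) or Y(HET) against Y(WT), and Cox11 rose in Y(KO) over Y(HET) (0.50).

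Of genes for mtDNA copying, transcription and RNA stability (23 of 26 found), 5 rose and 3 fell in O(-Ex) (34.8%, against 38.3% of all rows). Fastkd3 (0.56) and the single-strand binding protein Ssbp1 (0.26) were among those up, and the topoisomerase Top1mt (-0.76) and Fastkd1 (-0.44) among those down. In O(WT) Fastkd3 rose (0.47), and in O(+Ex) Fastkd5 fell (-0.78). In Y(KO) the transcription factor Tfb2m (0.48) and the tRNA-processing nuclease Elac2 (0.51) rose over Y(WT), and Fastkd3 (0.53) and Elac2 (0.48) over Y(HET). Of nuclear regulators (12 of 17 found), 1 rose and 1 fell in O(-Ex) (16.7% called), the coactivators Pprc1 (0.32) and Ppargc1b (-0.51). Pprc1 fell in O(+Ex) (-0.32), Creb1 fell in O(WT) (-0.36) and Gabpb1 rose in Y(HET) (0.44).

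Of the 19 genes of the tricarboxylic acid cycle and pyruvate entry, all found, 1 rose and 3 fell in O(-Ex) (21.1%, against 38.3% of all rows). Malate dehydrogenase Mdh2 rose by 0.23, and Ogdh (-0.39) and citrate synthase Cs (-0.45) were among those that fell. In O(WT) 3 fell, Cs (-0.52), Ogdh (-0.37) and Pdha1 (-0.34), and in Y(KO) 2 fell, Cs (-0.36) and Pdha1 (-0.36). In O(+Ex) Dlst fell (-0.28). No gene of these 4 lists passed for the wheel in young mice. In the authors' deposited table, the score given as the correlation of each gene with Ccnd1 had a median of -0.383 over the mitochondrial members, -0.0141 over the nuclear members and 0.00812 over all rows.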

How the data were processed

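Muscle stem cell polyA RNA was sequenced from 36 mice in 8 groups. Per the labels' protocols, RNA was reverse transcribed with oligo(dT) primers and sequenced as paired 101-base reads. Per the submitters' processing notes, the authors used Trim Galore, STAR, featureCounts (Subread) and mm10. For versions, strand setting and treatment of reads with several matches, the labels and files state nothing. The authors deposited adjusted RPKM for 11337 genes (summed RPKM per library 273837 to 350969, no zeros), and a score per gene, the correlation with Ccnd1. RPKM keep no counts, so the depth of each library is unknown and no counting interval is given. The centred log2 matrix had rank 29 of 35. The fits did not take this into account, so their SE and adjusted p may be too small.

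Log2 RPKM without a pseudocount were fitted with limma 3.58.1 (R 4.3.3, statmod 1.5.0), with 1 mean per group within each cohort, eBayes with trend and robust settings, and Benjamini-Hochberg adjustment over all rows, a call being an adjusted p under 0.05. Each replicate is an individual mouse. The fit was tested on simulated data, drawn independently for each library and so without the lost directions of variation. Sums, windows, motifs and figures were made with Python 3.11.15, numpy 2.4.6, pandas 2.3.3 and matplotlib 3.10.9. Alternatives were a pseudocount of 1, rows with a mean of at least 5 RPKM, median-of-ratios scaling, division by the RPKM outside the mitochondrial genome, all 36 libraries, the compared groups alone, a replicate block and each library left out. Replicate numbers were not used to pair the mice in the main fit, since no pair of groups had every correlation of deviations above 0.1. Between O(+Ex) and O(-Ex), 4 of 5 same-numbered pairs were above 0.1, and in every other pair of groups at most 1 was. Whether the numbers mark a shared batch was not tested.

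Every mitochondrial member, the isoforms and Ccnd1 were named in every group. Per comparison up to 2 called members per role and direction by lowest p and the 3 largest changes per direction were named, the 3 lowest p where none was called, and up to 2 genes per other list and direction. Members and lists were chosen with earlier results of these data known. A few further called members were named after their values were seen, and results of some genes are not reported here.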

Additional observations from a re-analysis of the deposited data

Results flagged for a closer look

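In 240 groups of 4 to 10 libraries tested with Dixon's criterion (95% level), 12 held a library apart from the others, where chance gives about 1 in 20 groups. The library Y(-Ex) replicate 4 stood apart in 4 of them. Its summed mitochondrial RPKM was 20913, against 12647 to 14783 in the other Y(-Ex) libraries. Its COX1 was 7358 RPKM (others 4062 to 4778), its ND4 1247 RPKM (others 612 to 741) and its ND6 869.8 RPKM (others 325 to 445). It also had the highest summed myofibre markers, 755 RPKM, and their part was not tested.

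In Y(HET) replicate 3, Cox5b was 28.9 RPKM (others 37.1 to 37.7) and Atp5g1 7.83 RPKM (others 10.0 to 10.4). In O(-Ex) replicate 3, Ndufaf4 was 11.8 RPKM (others 14.8 to 16.6) and Cox5b 37.2 RPKM (others 42.7 to 45.4). Cycs was 19.9 RPKM in Y(-Ex) replicate 6 (others 22.9 to 24.2), COX2 was 4.41 RPKM in Y(-Ex) replicate 5 (others 1.81 to 2.44), and ND5 was 1108 RPKM in O(-Ex) replicate 2 (others 758 to 893). Ndufa13 in the row ENSMUSG00000036199 was 45.6 RPKM in O(+Ex) replicate 2 (others 40.9 to 41.2).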

How the results depend on the processing

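Of 192 settings of the counts and ratios, 143 kept within 1.5 times the count or 1 SD of the ratio, and 49 moved. Those kept include every setting of the wheel in young mice and of the difference of the wheel effects, all at 0 calls. Among the ratios only those over median members moved. The other moves were counts of members called, in the Ccnd1 cohort and for the wheel in old mice. Named genes kept direction and stayed on the same side of the threshold in 756 settings, lost the call in 185 and reversed in 0. The 756 include the settings of the genes named as not passing, for the wheel in young mice and for the difference of the wheel effects. They are thus not all calls that held. Members called for age in the Ccnd1 cohort numbered 11, and 6 when divided by the RPKM outside the mitochondrial genome and 23 in the fit of all 36 libraries. For the wheel in old mice there were 6, and 20 with that division. For KO over WT there were 15, and 4 with that division, 27 in the fit of all 36 libraries and 4 with the compared groups alone. For HET over WT there was 1, and 4 in the fit of all 36 libraries, 0 among rows with a mean of at least 5 RPKM and 0 with the compared groups alone. For KO over HET there were 5, and 1 with median-of-ratios scaling, 1 with that division, 15 in the fit of all 36 libraries and 1 with the compared groups alone. The cause was not tested. With the replicate number as a block, members called were 41 for age in the wheel cohort, 9 in the Ccnd1 cohort, 5 for the wheel in old mice, 0 for KO over WT, 0 for HET over WT and 1 for KO over HET. Correlations of deviations between same-numbered libraries ran from -0.259 to 0.302, and 4 of 5 pairs of O(+Ex) and O(-Ex) libraries were above 0.1.

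With each library left out in turn, members called ran from 46 to 54 for age in the wheel cohort, 3 to 9 for age in the Ccnd1 cohort, 1 to 8 for the wheel in old mice, 0 to 21 for KO over WT, 0 to 2 for HET over WT and 1 to 4 for KO over HET, and stayed at 0 for the wheel in young mice and for the difference of the wheel effects. In the same way the ratio of the sums ran from 2.91 to 2.92 in O(+Ex), 3.15 to 3.40 in O(-Ex), 3.18 to 3.39 in Y(+Ex), 3.52 to 3.57 in Y(-Ex), 3.40 to 3.50 in Y(KO), 3.83 to 4.06 in Y(HET), 3.39 to 4.03 in O(WT) and 2.99 to 4.16 in Y(WT). Taken over median members in place of sums, the ratio was 22.5 in O(+Ex), 24.7 in O(-Ex), 26.8 in Y(+Ex), 29.6 in Y(-Ex), 29.7 in Y(KO), 31.8 in Y(HET), 32.3 in O(WT) and 29.5 in Y(WT). Depth per library is unknown, which limits what can be said of low rows such as COX2, Cox6a2 and Cox8b.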
